A study of Mus musculus with 2 samples.

Results

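Described here are 10 transcription factor genes of lung mesenchyme across the cell classes of single-cell libraries from mouse lung. They are the forkhead gene *Foxf1*, the T-box genes *Tbx2*, *Tbx3*, *Tbx4* and *Tbx5*, the homeobox gene *Meox2* and the basic helix-loop-helix (bHLH) genes *Tcf21*, *Twist1*, *Twist2* and *Scx*. The genes were taken from a list of symbols matched to the gene list of the count files, and all 10 were found among its 32285 genes. Mesenchyme gives the lung its fibroblasts, smooth muscle cells and pericytes, and transcription factors of these families mark its regions and layers during development. FOXF1 is known as a factor that acts downstream of hedgehog signals from the epithelium, T-box factors shape branching and the airway mesenchyme, and bHLH factors bind short DNA words called E-boxes, usually as pairs of proteins. HHIP, the product of the gene deleted in the study, binds hedgehog ligands at the cell surface and limits the signal.

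The study compares lungs of mice at P14 with and without deletion of *Hhip*, to ask how the signal acts on lung myofibroblasts. Both mice carried Gli1creERT/+: Hhipflox/flox, so that creER was made in cells that express *Gli1*. The *Gli1 HHIPCKO* mouse, below called the knockout, received tamoxifen, which the study's methods give at 100 mg/kg per day for 3 days, and the control mouse received oil at the same times. Live cells without CD31 and CD45 were sorted, and stromal cells without CD326 were combined with epithelial cells at 3:1 before loading. There was 1 mouse per condition, with a library each. For the control there are 43291709 unique molecular identifiers (UMIs) from 10999 cells, with a median of 3531 per cell, and for the knockout 52338969 UMIs from 12350 cells, with a median of 3720. The libraries share 193 cell barcodes. *Xist* was found in 0.109% of control cells and in 55.7% of knockout cells, so effects of sex and of the deletion cannot be told apart.

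After filters on genes and mitochondrial UMIs, 10917 control cells and 12115 knockout cells were clustered with the 10 genes held out, and clusters were named from marker genes. The thresholds for naming were set after the clusters had been seen, and names are therefore written with "-like". The alveolar myofibroblast (ALMF)-like class had 1640 and 938 cells (control first, here and below), and the ductal myofibroblast (DMF)-like class had 1169 and 1977. Fibroblast-like classes of the adventitial and alveolar kinds had 820 and 869, and 484 and 1740 cells. A class named peribronchial-like, after the markers set for it, had 143 and 164 cells, and its leading genes, *Actc1*, *Cnn1* and *Actg2* among them, are mostly genes of smooth muscle. The pericyte-like class had 465 and 789 cells, the mesothelial-like class 298 and 296, and the endothelial-like class 158 and 101, the last in spite of a sort against CD31. A glial-like class of 26 and 25 cells was too small to be compared. The unnamed clusters held 12.4% of control cells and 13.8% of knockout cells. No cluster was named as vascular smooth muscle. Among the unnamed mesenchymal clusters, one led by *Prss23* and *Ccn5*, with 258 and 257 cells, lay between the markers of vascular smooth muscle and pericytes. A further one led by *Actc1*, *Cnn1* and *Actg2*, with 145 and 172 cells, had its best score for the peribronchial markers and a close second for vascular smooth muscle, 1.30 and 1.13 without the markers these share. With all peribronchial markers its best score was 1.66, which cannot be set against the 1.13, since that leaves the shared markers out.

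Most ALMF-like and DMF-like clusters were made up mainly of cells from a single library. The ALMF-like clusters had 1134 and 70, 478 and 68, and 28 and 800 cells, the last led by *Lnx1* and *Egfem1*. That cluster had DMF as its second class, with a score of 0.666 against 0.874 for ALMF. The DMF-like clusters had 1067 and 26 cells, 30 and 1217 cells, and 10 and 548 cells, the last led by *Socs3* and with the immediate-early genes *Egr1* and *Junb* among its leading genes. A DMF-like cluster of 62 and 186 cells had a median of 832 UMIs. Cell state and library are therefore not separated in these classes.

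Levels are given as counts per 1000000 UMIs of a class in a library (CPM), with 95% exact Poisson intervals. Ratios set the knockout over the control on the log2 scale, are written as log2 folds and carry 95% exact binomial intervals. Both kinds of interval hold counting error alone and say nothing of how mice vary, and no test could be made. Ratios are reported where both libraries together hold at least 50 UMIs of the gene in the class, and a log2 fold of at least 1 or at most −1, a fold of 2, is used for counts. In droplet data free RNA adds UMIs to cells that do not express a gene. AT2-like cells (3319 and 2991, with medians of 4639 and 5621 UMIs) and red cell-like cells (215 and 197, with medians of 4979 and 5224) are therefore given as classes that should lack these factors. Clusters of AT2 markers that also carried mesenchymal markers were left unnamed, so the levels given for AT2-like cells are low in part through the naming. Such clusters of 404 and 430 cells, 170 and 398 cells, and 56 and 106 cells had 50.2, 27.5 and 50.4 CPM of *Foxf1* over both libraries.

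The mesenchymal clusters held 48.2% of control cells and 58.2% of knockout cells. They held a larger share of the UMIs of each of the 10 genes. For 9 of the genes that share ran from 76.5% in the control library, for *Foxf1*, to 88.9% in the knockout library, for *Twist2*. For *Scx* it was lower, with 58.9% of its control UMIs and 58.7% of its knockout UMIs. A share of cells is not a share of all UMIs, since AT2-like cells were deeper than the named mesenchymal classes. Their medians were 4639 and 5621 UMIs, against at most 3709 in the control and 3477.5 in the knockout. The mesenchymal share of all UMIs was not taken, so the closeness of 58.7% to 58.2% does not mean that *Scx* was spread evenly. The name of the group also does not cover all classes with high levels, since *Foxf1* and *Tbx3* were highest in endothelial-like cells in both libraries.

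**Figure D1:**
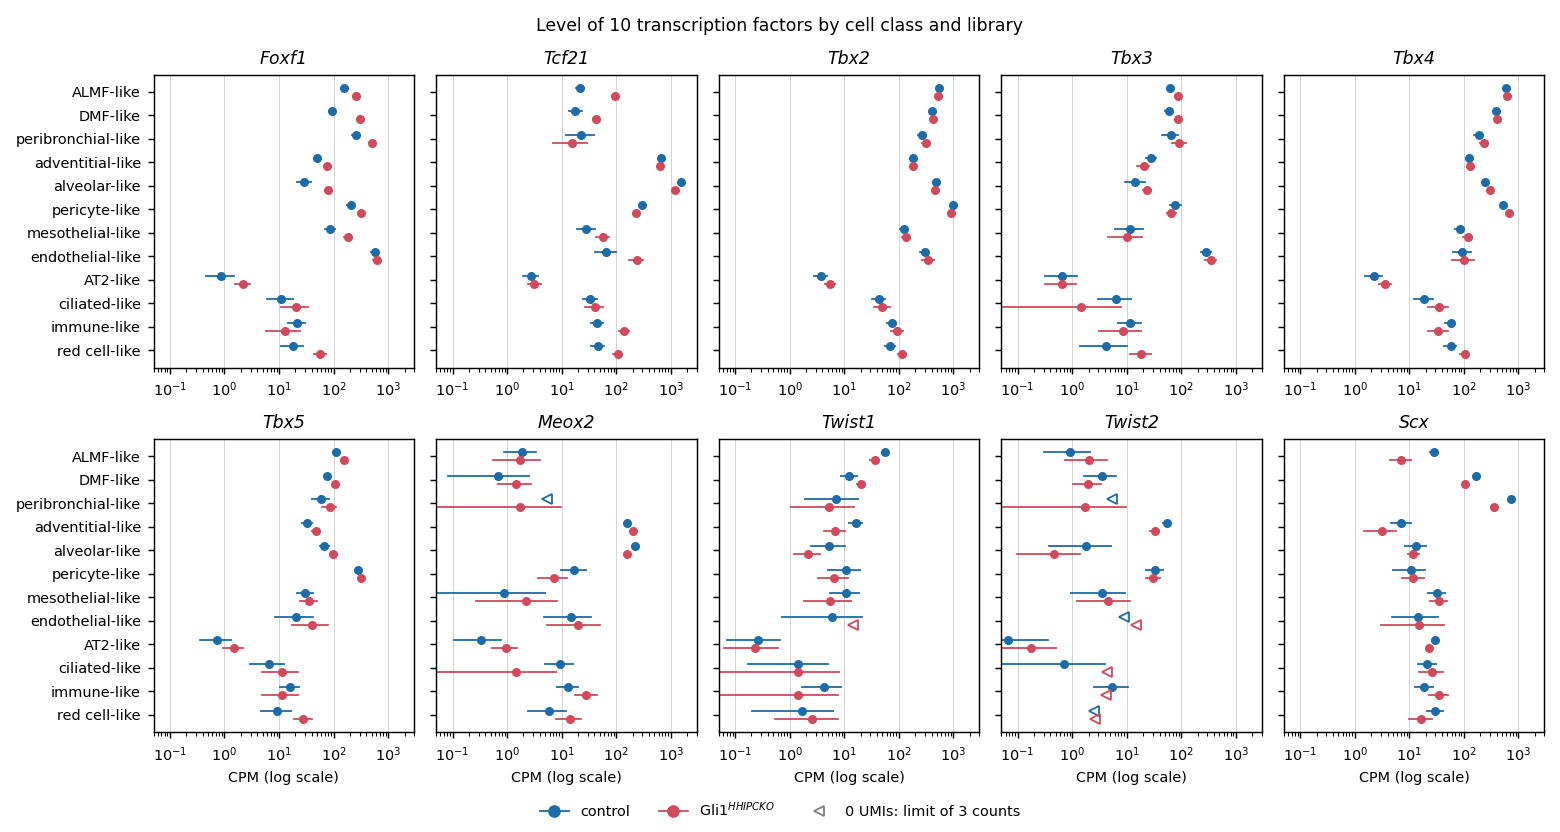
CPM of the 10 genes on a log axis in 12 classes, with 95% exact Poisson intervals, for the control library (blue) and the *Gli1 HHIPCKO* library (red); open triangles mark the limit that 3 counts set where no UMI was found, and intervals are drawn from 0.05 CPM up. *Foxf1* lies higher in the *Gli1 HHIPCKO* library in each mesenchymal class, while *Meox2* is high in adventitial-like and alveolar-like cells only.

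*Foxf1* (ENSMUSG00000042812; chr8:121084386-121088144, plus strand of GRCm38) encodes a forkhead factor of lung mesenchyme and endothelium. In DMF-like cells it stood at 95.4 CPM in the control library (84.5 to 107) and at 304 CPM in the knockout library (290.4 to 318). The libraries lie apart beyond counting error, with a log2 fold of 1.67 (1.49 to 1.86). In ALMF-like cells the level was 157 CPM in the control (146 to 167) and 257 CPM in the knockout (239 to 276). The intervals do not overlap here either, and the log2 fold was 0.72 (0.57 to 0.86). Peribronchial-like cells had 261 CPM in the control and 500.2 CPM in the knockout, a log2 fold of 0.94 (0.65 to 1.24). Alveolar-like cells had 28.7 CPM in the control (21.2 to 38.0) and 80.0 CPM in the knockout (73.3 to 87.3), a log2 fold of 1.48 (1.05 to 1.94). This class had the lowest control level of the mesenchymal classes, and taken as a difference of mean log-normalized values its log2 fold was 0.27.

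In pericyte-like cells *Foxf1* had 204 CPM in the control and 317 CPM in the knockout, a log2 fold of 0.64 (0.39 to 0.88). In adventitial-like cells the values were 50.6 and 74.9 CPM, a log2 fold of 0.57 (0.27 to 0.86). Taken as a difference of mean log-normalized values it was 0.09. Mesothelial-like cells, which line the lung surface, had 87.1 CPM in the control and 182 CPM in the knockout, a log2 fold of 1.06 (0.69 to 1.44). The knockout level was thus the higher one in each of the mesenchymal classes. The endothelial-like class differed from these. There *Foxf1* stood at 567 CPM in the control (489.6 to 653) and 621 CPM in the knockout (518 to 739.9), and the interval of the log2 fold of 0.13 holds 0 (−0.20 to 0.46).

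The level of *Foxf1* in AT2-like cells was 0.857 CPM in the control and 2.17 CPM in the knockout. In red cell-like cells it was 17.9 CPM in the control (11.1 to 27.3) and 56.9 CPM in the knockout (43.9 to 72.5), a log2 fold of 1.67 (0.94 to 2.45). Immune-like cells had 21.3 CPM in the control (14.8 to 29.6) and 12.7 CPM in the knockout (5.82 to 24.1), so the classes that should lack the gene do not share a single background. What part free RNA has in the ratios of other classes was not tested. In the control library the alveolar-like interval overlaps that of red cell-like cells, and in the knockout library the adventitial-like interval (65.7 to 85.1) does.

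The share of cells with a *Foxf1* UMI was also taken after each cell was thinned to 2000 UMIs, with shallower cells left out. In DMF-like cells this share was 17.7% in the control (15.1% to 20.4%), with 348 cells left out. It was 42.0% in the knockout (39.5% to 44.5%), with 434 cells left out. In ALMF-like cells it was 25.8% in the control and 39.0% in the knockout, with 164 and 117 cells left out. The same share in AT2-like cells was 0.0693% in the control and 0.290% in the knockout, and in red cell-like cells it was 0.976% and 9.29%. The shares in both myofibroblast-like classes are above these background shares in each library. In alveolar-like cells the share was 5.66% in the control (3.54% to 8.52%), above that of red cell-like cells (0.118% to 3.48%), and 12.9% in the knockout (11.2% to 14.8%). The knockout interval overlaps that of red cell-like cells (5.51% to 14.5%), and so does the interval of adventitial-like cells, at 12.1% (9.77% to 14.8%). The log2 folds of *Foxf1* in alveolar-like and adventitial-like cells thus compare levels of which at least 1 is near that of red cell-like cells.

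The order of *Foxf1* levels in the control library ran from endothelial-like over peribronchial-like and pericyte-like to ALMF-like, DMF-like, mesothelial-like, adventitial-like and alveolar-like cells. In that order the intervals of peribronchial-like and pericyte-like cells overlap, as do those of DMF-like and mesothelial-like cells. In the knockout library DMF-like cells stood above ALMF-like cells, with intervals that do not overlap. There the overlapping neighbours were endothelial-like and peribronchial-like cells, pericyte-like and DMF-like cells, and alveolar-like and adventitial-like cells. Within the alveolar-like class, a cluster of 43 and 184 cells, with a median of 6419 UMIs and DMF as its second class, had 147 CPM of *Foxf1* over both libraries. The other alveolar-like clusters had 65.8, 42.0 and 27.8 CPM. With likely doublets left out, the log2 fold in alveolar-like cells was 1.94.

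*Tbx2* (ENSMUSG00000000093; chr11:85832551-85841948, plus strand) encodes a T-box repressor that keeps mesenchymal cells dividing during lung growth. It was highest in pericyte-like cells, with 1006 CPM in the control (943 to 1072) and 909.6 CPM in the knockout (865 to 956), and the log2 fold was −0.15 (−0.26 to −0.03). In ALMF-like cells it stood at 557 CPM in the control and 528 CPM in the knockout. DMF-like cells had 406 CPM in the control and 420.5 CPM in the knockout. Pericyte-like, ALMF-like, alveolar-like and DMF-like cells came in this order in both libraries, with no overlap between neighbours. Alveolar-like cells had 479 and 454 CPM, and adventitial-like cells had 182 CPM in each library. The log2 folds were −0.08 in ALMF-like cells, 0.05 in DMF-like cells, −0.08 in alveolar-like cells and 0.00 in adventitial-like cells, each with an interval that holds 0. The sign in ALMF-like, DMF-like and adventitial-like cells changed under some of the alternative settings, so no direction is given for them. Red cell-like cells had 69.8 CPM of *Tbx2* in the control and 117 CPM in the knockout, below the levels of these classes, and AT2-like cells had 3.76 and 5.46 CPM.

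*Tbx4* (ENSMUSG00000000094; chr11:85886422-85916097, plus strand) encodes a T-box factor of lung and hindlimb mesenchyme. In the control library it stood at 588 CPM in ALMF-like cells (567 to 608) and 524 CPM in pericyte-like cells (479 to 573), with overlapping intervals. In the knockout library the levels were 624 CPM in ALMF-like cells (596 to 653) and 672 CPM in pericyte-like cells (634 to 712), which again overlap. DMF-like, alveolar-like, peribronchial-like and adventitial-like cells followed in both libraries. The log2 fold was 0.36 (0.20 to 0.51) in pericyte-like cells. Alveolar-like cells had 243 CPM in the control and 306 CPM in the knockout, a log2 fold of 0.33 (0.18 to 0.49). The log2 folds of 0.09 in ALMF-like cells and 0.08 in DMF-like cells changed sign under some of the alternative settings. The background was 57.0 CPM in red cell-like cells of the control and 103 CPM in those of the knockout (85.5 to 124), and 2.24 and 3.58 CPM in AT2-like cells. The knockout level of adventitial-like cells, 130.1 CPM (118 to 143), overlaps that of red cell-like cells.

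*Tbx5* (ENSMUSG00000018263; chr5:119832668-119885219, plus strand) encodes a T-box factor needed for the lung bud and the heart. It was highest in pericyte-like cells, with 282 CPM in the control (249 to 318) and 319.8 CPM in the knockout (293 to 348), and the interval of the log2 fold of 0.18 holds 0 (−0.03 to 0.40). In ALMF-like cells, which came next, the level was 112 CPM in the control and 157 CPM in the knockout, a log2 fold of 0.49 (0.31 to 0.67). In DMF-like cells, whose interval overlaps that of alveolar-like cells in both libraries, the level was 75.0 CPM in the control and 107 CPM in the knockout, a log2 fold of 0.51 (0.29 to 0.74). Each of these classes but the pericyte-like class has intervals of its libraries that do not overlap. The log2 fold was 0.55 (0.26 to 0.85) in alveolar-like cells, where the level was 67.6 CPM in the control and 98.8 CPM in the knockout. It was 0.54 (0.17 to 0.91) in adventitial-like cells, where the level was 32.8 and 47.7 CPM. Under alternative settings the adventitial-like value ran from 0.05, as a difference of mean log-normalized values, to 0.996, with each library clustered on its own. The log2 folds of ALMF-like, DMF-like, alveolar-like and adventitial-like cells lie within each other's intervals.

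The log2 folds of *Tbx5* were higher in the unnamed clusters led by *Prss23* and by *Actc1*, with intervals that overlap those of some or all of these classes. The other unnamed mesenchymal clusters were not compared. In the cluster led by *Prss23* and *Ccn5* it stood at 77.1 CPM in the control (58.0 to 100.3) and 188 CPM in the knockout (158 to 222), a log2 fold of 1.28 (0.82 to 1.76). In the cluster led by *Actc1* it stood at 44.5 CPM in the control (27.9 to 67.4) and 106 CPM in the knockout (78.9 to 139), a log2 fold of 1.25 (0.50 to 2.04). The level in red cell-like cells was 9.36 CPM in the control and 28.0 CPM in the knockout, and in AT2-like cells it was 0.725 and 1.47 CPM.

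*Tbx3* (ENSMUSG00000018604; chr5:119670669-119684724, plus strand) encodes a repressor close in sequence to TBX2. It was highest in endothelial-like cells, with 282 CPM in the control (228 to 344) and 350.2 CPM in the knockout (273 to 442). These intervals overlap, and the log2 fold was 0.31 (−0.15 to 0.77). In the mesenchymal classes the level was lower, with 63.1 CPM in the control and 85.6 CPM in the knockout in ALMF-like cells, a log2 fold of 0.44 (0.20 to 0.68). DMF-like cells had 58.4 CPM in the control and 86.2 CPM in the knockout, a log2 fold of 0.56 (0.31 to 0.82). Pericyte-like, peribronchial-like, ALMF-like and DMF-like cells lay close together, with overlapping neighbours in both libraries. Adventitial-like and pericyte-like cells had log2 folds below 0, of −0.46 (−0.95 to 0.01) and −0.25 (−0.69 to 0.19), with intervals that hold 0. Red cell-like cells had 4.25 CPM in the control and 18.4 CPM in the knockout (11.4 to 28.1), and AT2-like cells had 0.659 and 0.646 CPM. In the knockout the level of adventitial-like cells, 20.4 CPM (15.7 to 26.0), overlaps that of red cell-like cells. 

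The endothelial-like class was itself uneven, since a cluster of 52 and 46 cells led by *Car4* had 665 CPM of *Tbx3* over both libraries. In a cluster of 69 and 46 cells led by *Cldn5* and *Ptprb* it had 124 CPM. For *Foxf1* the same clusters had 739.5 and 673 CPM, with overlapping intervals.

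*Meox2* (ENSMUSG00000036144; chr12:37108540-37179534, plus strand) encodes a homeobox factor of mesoderm and its derivatives. Of the classes compared it was high in alveolar-like and adventitial-like cells, and near or below the level of red cell-like cells in ALMF-like, DMF-like and peribronchial-like cells. Alveolar-like cells had 217 CPM in the control (195 to 241) and 155 CPM in the knockout (146 to 165), a log2 fold of −0.48 (−0.66 to −0.30). Adventitial-like cells had 161 CPM in the control (148 to 176) and 203 CPM in the knockout (188 to 219), a log2 fold of 0.33 (0.16 to 0.50). The order of these classes is thus reversed between the libraries, with intervals that do not overlap within either. ALMF-like cells had 1.85 CPM in the control and 1.69 CPM in the knockout, below the 5.96 and 14.0 CPM of red cell-like cells, while AT2-like cells had 0.330 and 0.939 CPM. In peribronchial-like cells 0 UMIs were found in the control, which by a limit of 3 counts allows up to 5.32 CPM, and 1 UMI was found in the knockout.

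**Figure D2:**
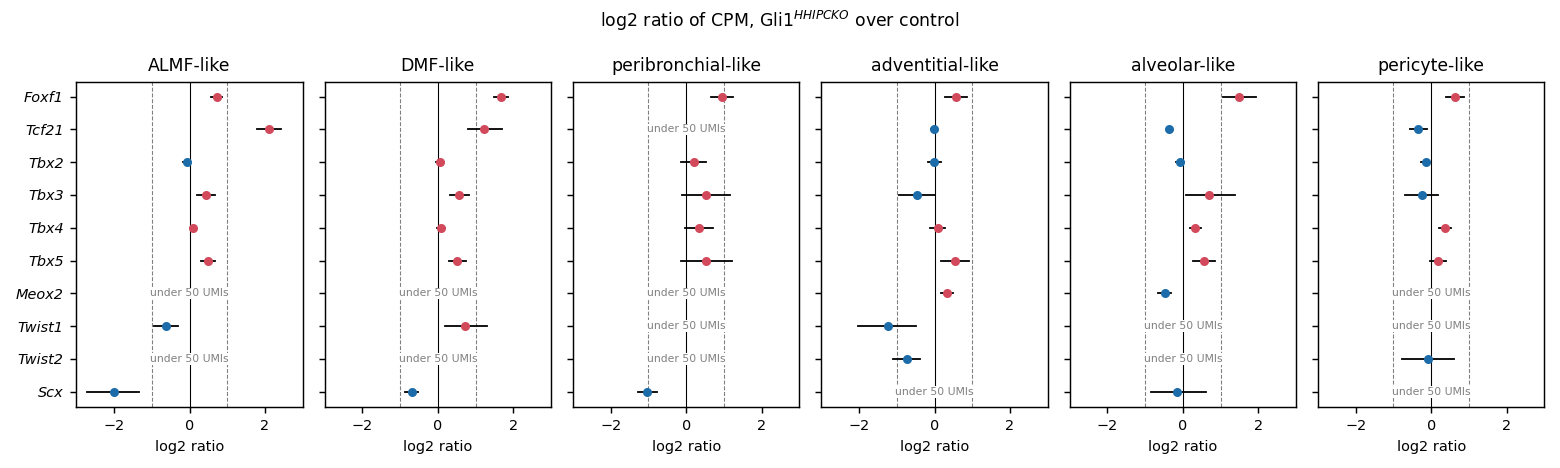
The log2 ratio of CPM, *Gli1 HHIPCKO* over control, for the 10 genes in 6 mesenchymal classes with 95% exact binomial intervals; dashed lines mark a fold of 2, and genes under 50 UMIs in a class are named as such. *Foxf1* lies above 0 in all 6 classes, and *Scx* in peribronchial-like cells lies below the lower dashed line at −1.03.

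*Tcf21* (ENSMUSG00000045680; chr10:22817281-22820174, minus strand) encodes a bHLH factor that marks lipid-bearing fibroblasts of the lung. In alveolar-like cells it stood at 1523 CPM in the control (1464 to 1583) and 1181 CPM in the knockout (1154 to 1208). The level was lower in the knockout beyond counting error, with a log2 fold of −0.37 (−0.43 to −0.30). Adventitial-like cells came next, with 655 and 648 CPM, and the interval of the log2 fold of −0.01 holds 0 (−0.10 to 0.07). Pericyte-like cells had 299 CPM in the control and 236 CPM in the knockout, a log2 fold of −0.34 (−0.57 to −0.12). Thinned to 2000 UMIs per cell, 86.8% of control and 81.7% of knockout alveolar-like cells had a *Tcf21* UMI, with 113 and 334 cells left out. That share was 0.520% and 0.616% in AT2-like cells and 4.88% and 9.29% in red cell-like cells.

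In the myofibroblast-like classes *Tcf21* was low, and its ratio was large. ALMF-like cells had 22.0 CPM in the control (18.2 to 26.3) and 94.4 CPM in the knockout (83.6 to 106), a log2 fold of 2.10 (1.79 to 2.43). DMF-like cells had 18.0 CPM in the control (13.4 to 23.6) and 42.2 CPM in the knockout (37.2 to 47.7), a log2 fold of 1.23 (0.80 to 1.69). Red cell-like cells had 46.8 CPM in the control (35.3 to 60.9) and 106 CPM in the knockout (87.9 to 127), a log2 fold of 1.18 (0.71 to 1.67). The levels in ALMF-like and DMF-like cells lie at or below those of red cell-like cells of the same library, and above those of AT2-like cells, at 2.77 CPM (2.00 to 3.74) and 3.17 CPM (2.38 to 4.14). The classes that should lack the gene thus differ, and the low levels were not told apart from free RNA. *Tcf21* was also higher in the knockout in immune-like cells, at 44.9 and 141 CPM, a log2 fold of 1.65 (1.21 to 2.11). In endothelial-like cells it had 64.6 CPM in the control and 237 CPM in the knockout, from UMIs in 11 and 7 cells, a log2 fold of 1.87 (1.12 to 2.67).

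The ALMF-like value of *Tcf21* also rests on a single cluster, that of 28 and 800 cells, which had 112 CPM over both libraries, while the other ALMF-like clusters had 19.6 and 17.4 CPM. The log2 fold was −0.96 without the cell filter, −0.52 without likely doublets and −0.28 at a resolution of 0.5, and in these settings the ALMF-like class of the knockout had 286, 297 and 207 cells. In DMF-like cells the log2 fold of *Tcf21* ran from 0.09 as a difference of mean log-normalized values to 2.16 with each library clustered on its own. It was not past a fold of 2 as a mean over cells of CPM, at 0.98, or between the largest clusters, at 0.31. Among DMF-like cells, the cluster led by *Socs3* had 84.1 CPM and the cluster of 30 and 1217 cells had 18.9 CPM.

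*Twist1* (ENSMUSG00000035799; chr12:33957671-33959829, plus strand) encodes a bHLH factor of embryonic mesenchyme. It was highest in ALMF-like cells, with 55.7 CPM in the control (49.6 to 62.4) and 36.2 CPM in the knockout (29.7 to 43.7). The log2 fold there was −0.62 (−0.95 to −0.30), with no overlap of the ALMF-like interval with that of any other class in either library. DMF-like cells had 12.4 CPM in the control (8.71 to 17.2) and 20.6 CPM in the knockout (17.2 to 24.5), a log2 fold of 0.73 (0.18 to 1.30). With ALMF-like and DMF-like cells summed, the log2 fold was −0.66. Adventitial-like cells had 16.2 CPM in the control (12.1 to 21.3) and 6.90 CPM in the knockout (4.32 to 10.4), a log2 fold of −1.24 (−2.03 to −0.49) from 52 and 22 UMIs. As a mean over cells of each cell's CPM it was −0.52, which is not past a fold of 2. Red cell-like cells had 2 UMIs in the control and 3 in the knockout, or 1.70 CPM (0.206 to 6.15) and 2.63 CPM (0.541 to 7.67), and the knockout interval overlaps that of adventitial-like cells.

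*Twist2* (ENSMUSG00000007805; chr1:91801461-91848028, plus strand) encodes a close relative that is best known from dermal fibroblasts. In adventitial-like cells it stood at 54.6 CPM in the control (46.9 to 63.4) and 32.9 CPM in the knockout (26.9 to 39.9), a log2 fold of −0.73 (−1.09 to −0.37). Pericyte-like cells had 32.8 CPM in the control and 30.8 CPM in the knockout, and the interval of the log2 fold of −0.09 holds 0 (−0.76 to 0.60). The intervals of these classes overlap in the knockout only. The other classes compared had at most 5.46 CPM, in immune-like cells of the control library. Red cell-like cells had 0 UMIs in either library, which by a limit of 3 counts allows up to 2.55 CPM in the control and 2.63 CPM in the knockout. *Twist1* and *Twist2* thus differed in where they were highest, with *Twist1* in ALMF-like cells and *Twist2* in adventitial-like and pericyte-like cells.

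*Scx* (ENSMUSG00000034161; chr15:76457452-76459458, plus strand) encodes scleraxis, a bHLH factor known from tendon. In peribronchial-like cells it stood at 729 CPM in the control (660.2 to 803) and 357 CPM in the knockout (310.1 to 409), a log2 fold of −1.03 (−1.28 to −0.79). The log2 fold was just short of a fold of 2 when mitochondrial, ribosomal protein and haemoglobin genes were left out of the total, and it was −0.96 after thinning. The thinned share of cells with an *Scx* UMI was 69.6% in the control (60.7% to 77.5%) and 39.5% in the knockout (31.5% to 47.8%), with 18 and 17 cells left out. DMF-like cells came next in both libraries, with 169 CPM in the control (154 to 185) and 105 CPM in the knockout (96.6 to 113), a log2 fold of −0.69 (−0.87 to −0.52). It lay outside this interval in 7 of 12 alternative settings, from −1.13 without the cell filter to −0.09 with ALMF-like and DMF-like cells summed, and its sign was kept in all of them. Between the largest DMF-like clusters of each library it was −0.33. In the unnamed cluster led by *Actc1* *Scx* had 16 UMIs in the control and 2 in the knockout, or 32.4 CPM (18.5 to 52.6) and 4.06 CPM (0.492 to 14.7), far below the peribronchial-like class. The DMF-like cluster led by *Socs3* had 64.0 CPM over both libraries, against 141 CPM in the cluster of 30 and 1217 cells and 163 CPM in that of 1067 and 26 cells.

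In ALMF-like cells *Scx* had 153 UMIs in the control, or 28.2 CPM, and 21 UMIs in the knockout, or 7.10 CPM. The log2 fold of −1.99 (−2.72 to −1.33) rests on the cluster of 478 and 68 cells, which had 59.8 CPM over both libraries, while the clusters of 1134 and 70 cells and of 28 and 800 cells had 7.64 and 7.36 CPM. It was −0.02 when the classes of the control cells were carried over to knockout cells. The ALMF-like interval of the control overlaps that of red cell-like cells, at 29.8 CPM (20.7 to 41.4), so the level of the class as a whole is not above theirs. The cluster of 478 and 68 cells is, with an interval of 49.8 to 71.1 CPM against 17.5 to 30.4 CPM in red cell-like cells over both libraries. *Scx* UMIs were also counted in AT2-like cells, at 30.1 CPM in the control (27.4 to 33.0) and 23.4 CPM in the knockout (21.2 to 25.8), a log2 fold of −0.36 (−0.56 to −0.16). These levels overlap those of red cell-like cells in both libraries. After thinning, 6.28% of control (5.42% to 7.22%) and 4.28% of knockout AT2-like cells (3.55% to 5.10%) had an *Scx* UMI, with 435 and 233 cells left out. Red cell-like cells had 1.95% (0.534% to 4.92%) and 2.73% (0.893% to 6.26%), so that the share in AT2-like cells was above theirs in the control only. The other 9 genes had at most 5.46 CPM in AT2-like cells, for *Tbx2* in the knockout library.

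Counts past a fold of 2 were set beside those of all genes tested in the same class. In ALMF-like cells 2 of 8 factors tested were past it, *Tcf21* up and *Scx* down, and 4.47% of 10104 genes tested were. In DMF-like cells 2 of 8 were past it, *Foxf1* and *Tcf21*, both up, against 5.14% of 10274 genes. In peribronchial-like cells 1 of 6 was past it, *Scx*, against 4.83% of 4199 genes. In adventitial-like cells it was 1 of 9, *Twist1*, against 2.88% of 9580 genes. In alveolar-like cells it was 1 of 8, *Foxf1*, against 3.74% of 9930 genes. None of the 7 factors tested in pericyte-like cells was past a fold of 2, against 2.91% of 7366 genes. In mesothelial-like cells 2 of 6, *Foxf1* and *Tcf21*, were past it, against 3.29% of 6108 genes. In the cluster led by *Prss23* it was 1 of 5, *Tbx5*, against 2.75% of 5094 genes, and in the cluster led by *Actc1* 1 of 4, again *Tbx5*, against 4.14% of 3384 genes.

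These shares exceed the background in all of these classes except the pericyte-like class, but the counts are small. The genes were also chosen with earlier results of these data known. The excess and the medians below are therefore a description and not a test of the factors as a group. *Tcf21* in ALMF-like, DMF-like and mesothelial-like cells and *Scx* in ALMF-like cells as a whole are not above red cell-like cells. The control interval of *Foxf1* in alveolar-like cells and the knockout interval of *Twist1* in adventitial-like cells overlap those of red cell-like cells. As a difference of mean log-normalized values, *Scx* in peribronchial-like cells was the only factor past the threshold in the 6 mesenchymal classes. That measure stays small for genes with few UMIs per cell, whatever their ratio, so it does not decide on calls at low levels. The median log2 fold of the factors was 0.26 in ALMF-like cells and 0.54 in DMF-like cells, where the medians of all genes were 0.01 and −0.02. In the DMF-like class 7 of 8 factors had a log2 fold above 0, and in the ALMF-like class 5 of 8 had. Over all genes tested these were 4912 of 10274 and 5159 of 10104. The median was 0.43 in peribronchial-like and 0.37 in mesothelial-like cells, against 0.04 and 0.03 for all genes. In the unnamed clusters led by *Prss23* and by *Actc1* it was 0.55 and 0.77, against 0.02 and 0.06. In alveolar-like cells it was 0.13 against 0.00. In pericyte-like cells the median was −0.09 against 0.04 for all genes, and in adventitial-like cells it was 0.00 against 0.01.

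A list of 36 other stromal transcription factors was treated in the same way. In ALMF-like cells 3 of 31 tested were past a fold of 2, 2 up and 1 down, and the median log2 fold was −0.03. In DMF-like cells 5 of 31 were past it, 3 up and 2 down, and the median was 0.00. In the cluster led by *Actc1* the median of this list was 0.40, with 13 of 15 tested above 0. It was 0.07 in the cluster led by *Prss23*, 0.18 in mesothelial-like and 0.12 in adventitial-like cells. Alveolar-like, pericyte-like and peribronchial-like cells had 0.01, −0.01 and −0.08. *Gli1*, which encodes an effector and target of hedgehog signalling, had the highest log2 fold in ALMF-like and DMF-like cells. ALMF-like cells had 5.91 CPM of it in the control and 19.3 CPM in the knockout, a log2 fold of 1.71 (1.06 to 2.38). DMF-like cells had 4.49 and 31.9 CPM, a log2 fold of 2.83 (2.02 to 3.76). These levels of *Gli1* are low, and its ratios were not taken under the alternative settings. *Heyl*, a factor of the Notch pathway, had log2 folds of 1.21 and 2.04 in these classes. The lowest values in ALMF-like cells were those of *Srf* at −1.10 and *Snai2* at −0.95. In DMF-like cells they were those of *Prrx2* at −1.33 and *Gata6* at −1.23.

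The readout of the deletion was measured in the same cells. In the DMF-like class *Hhip* had 2373 CPM in the control and 361 CPM in the knockout, a log2 fold of −2.72 (−2.78 to −2.65). In ALMF-like cells the log2 fold of *Hhip* was −1.39 (−1.52 to −1.26). It was also below 0 in red cell-like (−1.60), immune-like (−1.75) and AT2-like cells (−1.30). *Ptch1*, a target and receptor of the pathway, had 40.4 CPM and 121 CPM in DMF-like cells, a log2 fold of 1.58 (1.30 to 1.88). Its log2 fold was 2.03 (1.57 to 2.53) in peribronchial-like, 1.20 (0.73 to 1.67) in mesothelial-like and 0.73 (0.52 to 0.95) in ALMF-like cells. It was 0.54 (0.25 to 0.84) in alveolar-like and 0.46 (0.22 to 0.70) in adventitial-like cells. *Ptch1* and *Foxf1* thus both had log2 folds above 0 in these classes. In pericyte-like cells, where *Foxf1* had a log2 fold of 0.64, *Ptch1* had 95.3 CPM in the control and 98.3 CPM in the knockout, a log2 fold of 0.04 (−0.33 to 0.43).

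Likeness between genes was taken as the Pearson correlation of log2(CPM + 10) over 24 points, 1 for each of the 12 classes compared in each library, among 7974 genes with at least 50 CPM in a point. The points share libraries, and the classes differ in depth, so the values are a description only. The most alike genes were *Fendrr* (0.960) and *Rhoc* (0.905) for *Foxf1*, with the correlation in parentheses. They were *Cacna1d* (0.955) and *Cd40* (0.936) for *Tcf21*, and *Serpina3n* (0.951) and *Slc36a2* (0.943) for *Meox2*. The T-box genes had *Lhfp* (0.966) and *Tmem204* (0.954) for *Tbx2*, *Fendrr* (0.931) and *Nsg1* (0.929) for *Tbx3*, *Adcy2* (0.968) and *Dkk3* (0.964) for *Tbx4*, and *Adcy2* (0.964) and *Gnb4* (0.957) for *Tbx5*. The other bHLH genes had *Tshz1* (0.868) and *Tango2* (0.855) for *Twist1*, *Foxs1* (0.892) and *Fst* (0.865) for *Twist2*, and *Kcnma1* (0.913) and *Asb2* (0.896) for *Scx*. Among the factors themselves, the highest values were those of *Tbx4* with *Tbx5* (0.960) and with *Tbx2* (0.956). *Foxf1* with *Tbx3* had 0.905 and *Tcf21* with *Meox2* had 0.893. The lowest was that of *Tcf21* with *Scx* (−0.544), which had their highest levels in different classes.

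Several of the genes lie close together in the genome (GENCODE vM21 on GRCm38). *Tbx2* and *Tbx4* lie in that order on the plus strand of chromosome 11, with 44473 bp between them and 1 annotated coding gene, *Gm11444*, in the gap. *Tbx3* and *Tbx5* lie on the plus strand of chromosome 5, with 147943 bp between them and no coding gene in the gap. *Tbx2* and *Tbx4* had like patterns over the classes (0.956), while *Tbx3* and *Tbx5* had a lower correlation (0.609), with *Tbx3* highest in endothelial-like and *Tbx5* in pericyte-like cells. *Foxf1* starts 1276 bp from the start of *Fendrr* (ENSMUSG00000097336; chr8:121054882-121083110, minus strand), a long non-coding RNA read in the opposite direction. *Scx* lies wholly inside *Bop1*, on the opposite strand and without overlap with its exons, and *Bop1* had 568 UMIs in the control and 564 in the knockout over all cells kept. The annotation places a gene *Gm20388* over *Foxf1* on the same strand, which the gene list of the count files does not hold. *Tbx3* overlaps the antisense gene *Tbx3os1*, which had 167 UMIs in the control and 302 in the knockout.

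**Figure D3:**
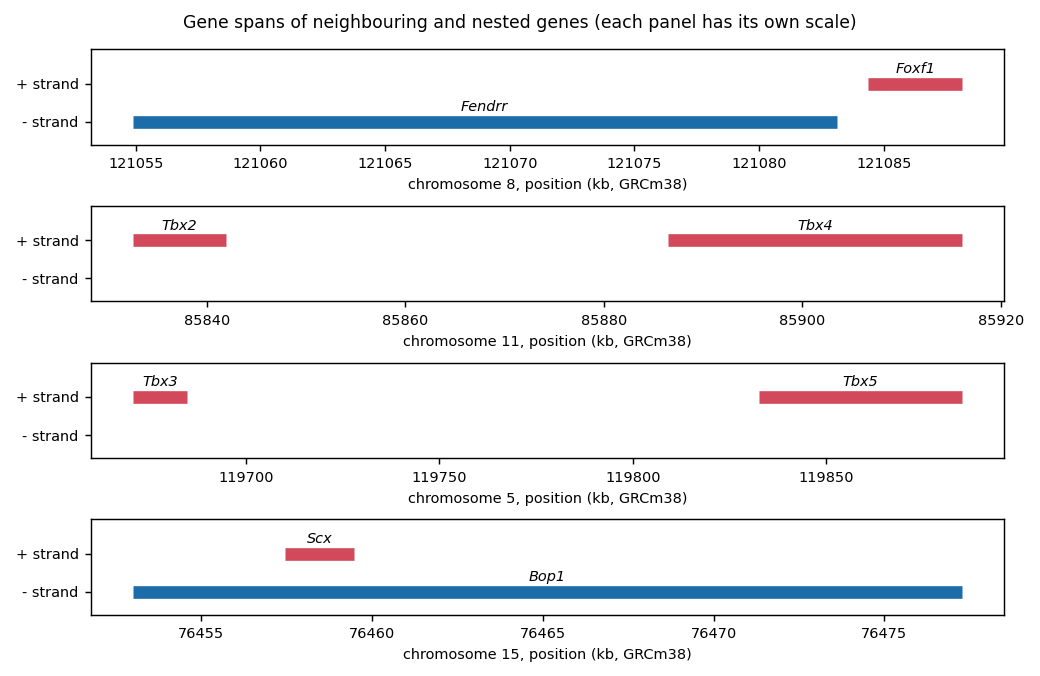
Gene spans to scale on GRCm38, by strand, for *Foxf1* and *Fendrr*, *Tbx2* and *Tbx4*, *Tbx3* and *Tbx5*, and *Scx* inside *Bop1*; the horizontal axis gives the position in kb, with its own scale in each panel. The starts of *Foxf1* and *Fendrr* lie 1276 bp apart.

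*Fendrr* followed *Foxf1* in part. In ALMF-like cells it stood at 77.2 CPM in the control (69.9 to 84.9) and 126 CPM in the knockout (113 to 139), a log2 fold of 0.71 (0.50 to 0.91), near that of *Foxf1*. In DMF-like cells it stood at 73.3 CPM in the control and 113 CPM in the knockout, a log2 fold of 0.63 (0.40 to 0.86), which lies below the interval of *Foxf1*. In pericyte-like cells it had 148 and 137 CPM, and the log2 fold of −0.11 (−0.42 to 0.20) also lies below that of *Foxf1*. The log2 folds were 0.48 (−0.03 to 1.01) in peribronchial-like, 0.78 (0.06 to 1.58) in alveolar-like and 0.23 (−0.28 to 0.74) in mesothelial-like cells. These values lie below the interval of *Foxf1*, but their own intervals overlap it, unlike those in DMF-like and pericyte-like cells. The log2 fold in adventitial-like cells (0.73) lies within the interval of *Foxf1*. The differences between the genes' log2 folds were not tested.

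RefSeq promoter windows, from 250 bases before to 50 after a gene's start on GRCm38.p6, were matched for 5 of the 10 factors, *Tcf21*, *Tbx4*, *Meox2*, *Twist1* and *Twist2*, and for *Fendrr*. The letters searched on both strands were GACCACCCA for GLI factors, AGGTGTGA for T-box factors, TGTTTAC for forkhead factors and CANNTG for the E-box of bHLH factors, which reads the same on both strands. Of 32851 windows of 300 bases, 0.253% hold the GLI letters, 1.28% the T-box letters, 3.65% the forkhead letters and 72.3% an E-box. The *Fendrr* window held 1 forkhead match, the *Meox2* window 1 E-box and the *Tbx4* window 6 E-boxes, and no other match was found in these windows. The *Tbx4* window starts at position 85896515, inside the annotated gene. The *Fendrr* window (chr8:121083061-121083360, minus strand) is shown because *Fendrr* was the gene most like *Foxf1*, and its capitals mark the forkhead letters, which lie on the other strand. The windows of *Tcf21* (chr10:22820094-22820393, minus strand) and *Meox2* (chr12:37108290-37108589, plus strand) are shown because these factors shared alveolar-like and adventitial-like cells, and capitals mark the E-box, of which *Tcf21* has none. A match describes the letters of a window and does not show that a protein binds there.
Fendrr: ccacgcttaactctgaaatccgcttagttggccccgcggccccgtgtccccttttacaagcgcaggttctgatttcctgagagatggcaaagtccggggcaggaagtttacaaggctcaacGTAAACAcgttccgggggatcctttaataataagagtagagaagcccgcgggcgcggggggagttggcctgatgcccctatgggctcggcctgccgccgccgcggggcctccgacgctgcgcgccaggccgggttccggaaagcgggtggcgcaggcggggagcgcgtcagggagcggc
Tcf21: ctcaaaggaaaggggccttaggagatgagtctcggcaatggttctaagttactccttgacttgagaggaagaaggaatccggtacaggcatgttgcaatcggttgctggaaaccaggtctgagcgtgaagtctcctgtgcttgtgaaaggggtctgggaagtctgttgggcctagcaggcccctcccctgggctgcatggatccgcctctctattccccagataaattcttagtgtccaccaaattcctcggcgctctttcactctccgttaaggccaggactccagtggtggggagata
Meox2: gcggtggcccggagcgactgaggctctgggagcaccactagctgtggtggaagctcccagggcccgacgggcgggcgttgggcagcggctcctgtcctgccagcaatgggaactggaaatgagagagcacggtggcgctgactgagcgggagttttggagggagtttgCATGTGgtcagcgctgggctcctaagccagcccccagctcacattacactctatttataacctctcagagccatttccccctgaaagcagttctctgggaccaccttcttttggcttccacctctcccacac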

How the data were processed

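The count matrices were used as deposited by the authors, whose notes say that reads were aligned and counted with Cell Ranger 3.1.0 on mm10, while the header of the matrices and the methods give CellRanger 6.1.0. The design text and the study's methods name a 5′ v2 kit and the sample labels a 3′ v2 kit. The filter asked for 200 to 6000 genes per cell and no more than 10% of UMIs from mitochondria. Logs of values per 10000 UMIs of a cell entered, and 2000 variable genes, with 62 genes held out, gave 30 principal components. A graph of 20 neighbours was cut by Leiden at a resolution of 1, in a first round of 34 clusters and a second round of 23 on the mesenchymal cells. There were 18 classes with markers. A cluster was named if the mean z-score of the markers was at least 0.3, at least 3 markers were found in 10% of its cells, at least 1 was among its 10 leading genes with no other class having more, and the second class had at most 0.8 of the best score, both taken without the markers that these classes share. Clusters with another lineage's score of at least 0.15 and 0.2 of the best were left unnamed. This left 12 clusters unnamed. A factor was named in the text as past a fold of 2 when its log2 fold was at least 1 or at most −1, and named genes of the other list are the 2 highest and the 2 lowest. The genes and lists were chosen with earlier results of these data known. Alternatives changed the filter, doublets, resolution, clustering by library, class transfer, genes held out, total, summary, depth, minimum count and joining of classes. Clustering ran with leidenalg 0.10.2, igraph 0.11.9 and scikit-learn 1.9.0, and tables and plots with pandas 2.3.3, matplotlib 3.10.9, scipy 1.17.1 and numpy 2.4.6 under Python 3.11.15.

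The comparison rests on 1 mouse per group, so differences between libraries hold those of mouse, sex, sorting and preparation as well as of treatment. Cell classes come from markers and not from a reference atlas, and ALMF-like and DMF-like clusters are largely split by library. Several of the genes have few UMIs in most classes, and free RNA was not measured. RNA was measured, and protein and binding to DNA were not. Promoter windows of *Foxf1*, *Tbx2*, *Tbx3*, *Tbx5* and *Scx* were not analysed here.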

Additional observations from a re-analysis of the deposited data

Results flagged for a closer look

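Some factors had log2 folds of opposite sign in different classes, with intervals that do not hold 0 on either side. Among the 6 mesenchymal classes *Tcf21* was higher in the knockout in ALMF-like and DMF-like cells and lower in alveolar-like and pericyte-like cells, and its log2 fold in ALMF-like cells lay 2.47 above that in alveolar-like cells. The levels in ALMF-like and DMF-like cells are at or below those of red cell-like cells, whose log2 fold was 1.18, and above those of AT2-like cells. Immune-like cells had a log2 fold of 1.65, and the sign in ALMF-like cells reversed in 3 of 12 alternative settings. *Meox2* was higher in adventitial-like and lower in alveolar-like cells, with 0.81 between the log2 folds. *Twist1* was higher in DMF-like cells and lower in ALMF-like and adventitial-like cells, with 1.96 between the DMF-like and the adventitial-like log2 fold. The adventitial-like value rests on 52 and 22 UMIs, and its knockout level overlaps that of red cell-like cells. It was not past a fold of 2 as a mean over cells of CPM. With ALMF-like and DMF-like cells summed, the sign in DMF-like cells reversed, at −0.66. Whether these differences between classes exceed those between mice was not tested.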

How the results depend on the processing

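The share of all genes past a fold of 2 is given for the main setting only. Counts of factors under the alternatives below therefore cannot be set against it. Without the cell filter, *Tcf21* in ALMF-like cells had a log2 fold of −0.96 in place of 2.10, and the number of factors past a fold of 2 was 1 in ALMF-like cells, in place of 2, and 4 in DMF-like cells, in place of 2. With likely doublets left out, *Tcf21* in ALMF-like cells had −0.52, 1 factor was past it there, and 3 were in DMF-like cells (*Foxf1*, *Tcf21* and *Scx*). At a resolution of 0.5, *Tcf21* in ALMF-like cells had −0.28, and 0 factors were past it. The ALMF-like class held fewer knockout cells in these settings, and the DMF-like class held more. Knockout DMF-like cells numbered 2610 without the filter, 2543 without likely doublets and 2023 at a resolution of 0.5, against 1977. The cause was not tested.

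With each library clustered on its own, 0 factors were past a fold of 2 in ALMF-like cells, 2 in adventitial-like cells (*Twist1* and *Twist2*) in place of 1, and 2 in alveolar-like cells (*Foxf1* and *Scx*) in place of 1. With control classes carried over, *Foxf1* in ALMF-like cells had 0.88 in place of 0.72, and 1 factor was past a fold of 2. The cause was not tested.

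As a difference of mean log-normalized values, *Foxf1* had 0.39 in ALMF-like cells and 0.84 in DMF-like cells, in place of 0.72 and 1.67. By this measure 0 factors were past the threshold in ALMF-like, 0 in DMF-like, 0 in adventitial-like and 0 in alveolar-like cells. The measure stays small at low levels, so these counts do not test the folds of factors with few UMIs per cell. As a mean over cells of CPM, 1 factor was past a fold of 2 in DMF-like cells and 0 in adventitial-like cells. Other causes of these differences were not tested.

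With ALMF-like and DMF-like cells summed, *Foxf1* had 1.09 for both classes. Between the largest clusters of each library, a setting chosen after the data had been seen, 1 factor was past a fold of 2 in ALMF-like cells and 1 in DMF-like cells. With another total, 0 were past it in peribronchial-like cells, and after thinning 0 were in peribronchial-like and 0 in adventitial-like cells, and 3 in DMF-like cells (*Foxf1*, *Tcf21* and *Twist1*). At a minimum of 20 UMIs, where more genes are tested, 2 were past it in adventitial-like cells (*Twist1* and *Scx*), 2 in alveolar-like cells (*Foxf1* and *Twist1*) and 1 in pericyte-like cells (*Meox2*).

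*Scx* in ALMF-like cells has no value at a resolution of 0.5, with each library clustered on its own, or between the largest clusters, since it had fewer than 50 UMIs there. *Foxf1* kept its sign in all 6 mesenchymal classes under every alternative.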

Other observations

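A small cluster of 25 and 9 cells led by *Myl7* and *Myh6*, genes of heart muscle, had 362 CPM of *Tbx5* over both libraries (255 to 499.5). An endothelial-like cluster of 37 and 9 cells led by *Ccl21a* and *Stab1* had 2 UMIs of *Foxf1*, or 21.7 CPM (2.63 to 78.4). Adventitial-like clusters differed in *Twist2*, with 88.3 CPM in the cluster led by *Pi16* and *C1qtnf3* and 7.83 CPM in that of 275 and 271 cells.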
